A study of Mus musculus with 16 samples.

Results

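The 10 genes described here belong to the circadian clock or respond to glucocorticoids, and were measured in 16 RNA-seq libraries of mouse peripheral blood mononuclear cells: Per1, Per2, Per3, Cry1, Nr1d1, Nr1d2, Dbp, Tef, Fkbp5 and Tsc22d3. They were taken by symbol from the 51179 genes of the deposited table, all 10 were found, and all 10 passed the filter on low values that left 16365 genes for testing. All mice were C57BL/6N. In the HFD+L-NAME+NO2-OA group (6 libraries) they received a high-fat diet with the nitric oxide synthase inhibitor L-NAME for 15 weeks and nitro-oleic acid (NO2-OA) for the last 4 of these. The HFD+L-NAME group (5 libraries) received the same diet and inhibitor without NO2-OA, a regimen used as a model of heart failure with preserved ejection fraction, and the chow group (5 libraries) received regular chow. The labels give no dose, age, sex or hour of blood collection for any group, and they do not say that each library came from a separate mouse, so p-values measure only the spread between these libraries.

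In mammals CLOCK and BMAL1 bind E-box DNA and switch on the Per and Cry genes, whose proteins then repress CLOCK and BMAL1. REV-ERB alpha and beta, the products of Nr1d1 and Nr1d2, form another loop by repressing Bmal1, and the output factors DBP and TEF act through D-box DNA. Blood levels of corticosterone follow a daily rhythm and rise with stress, and the glucocorticoid receptor induces Fkbp5, Tsc22d3 and Per1 in many cell types. Per1 and Per2 also respond to other signals that act within the hour, among them cyclic AMP.

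The libraries differed in ways that touch every value below. The reads recovered from the deposited values, transcript abundances scaled to 1000000 per library (TPM), came to between 4293056 and 23287362 per library. Protein-coding genes held 15.1% to 22.1% of all TPM in NO2-OA replicate 2, HFD+L-NAME replicate 5 and chow replicate 3, against 39.1% to 56.4% in the other 13 libraries. They held 89.6% or more of the recovered reads in every library. The genes with recovered reads held 58.9% to 88.4% of TPM per library, so the protein-coding share of all reads is not known. The 6 markers of peritoneal macrophages summed to between 287 and 676 TPM in HFD+L-NAME replicates 1 and 5 and chow replicates 1 and 2, against 0.426 to 1.87 TPM in the other 12, where Timd4 was at 0. Markers of T cells (summed 48.5 to 324 TPM), B cells (306 to 2026 TPM) and monocytes (499 to 2215 TPM) were present in all 16 libraries, as were platelet and red cell markers. The submitters' library numbers form a lower run of 11 and a higher run of 5 (HFD+L-NAME replicates 1 and 5, NO2-OA replicate 2, chow replicates 1 and 2). Because a gene's TPM depends on what else was sequenced, values were also rescaled by the median of ratios over 14880 genes, with library factors between 0.462 and 1.55.

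The sequence upstream of 4 members is shown because members below differ in whether, after rescaling, they were high in the same libraries. Per1 and Cry1 were, Fkbp5 was not, and Nr1d1 is the member whose own values picked those libraries. RefSeq windows of 250 bases before to 50 bases after a start on GRCm38.p6 matched 9 of the 10 members by symbol, all but Per2, in 13 windows. The windows are Per1 chr11:69098699-69098998 (plus strand), Cry1 chr10:85185005-85185304 (minus strand), Nr1d1 chr11:98775328-98775627 (minus strand) and Fkbp5 chr17:28486100-28486399 (minus strand), and capitals mark the E-box letters CACGTG.
Per1: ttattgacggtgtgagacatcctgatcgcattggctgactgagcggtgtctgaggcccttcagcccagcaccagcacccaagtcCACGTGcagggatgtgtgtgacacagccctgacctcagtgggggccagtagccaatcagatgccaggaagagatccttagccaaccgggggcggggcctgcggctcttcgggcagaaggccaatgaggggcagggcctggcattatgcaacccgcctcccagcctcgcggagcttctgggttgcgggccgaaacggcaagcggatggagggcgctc
Cry1: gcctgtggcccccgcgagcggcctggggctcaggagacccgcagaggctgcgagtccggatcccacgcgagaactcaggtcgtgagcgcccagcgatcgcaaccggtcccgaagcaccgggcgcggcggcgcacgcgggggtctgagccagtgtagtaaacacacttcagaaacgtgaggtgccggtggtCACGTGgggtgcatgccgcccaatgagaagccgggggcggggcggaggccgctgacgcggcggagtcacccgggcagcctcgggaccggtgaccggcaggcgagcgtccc
Nr1d1: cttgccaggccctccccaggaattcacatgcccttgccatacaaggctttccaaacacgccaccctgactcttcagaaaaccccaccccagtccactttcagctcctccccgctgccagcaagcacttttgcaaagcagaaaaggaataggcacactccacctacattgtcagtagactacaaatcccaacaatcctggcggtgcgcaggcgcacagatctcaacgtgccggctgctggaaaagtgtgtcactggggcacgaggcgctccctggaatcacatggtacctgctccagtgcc
Fkbp5: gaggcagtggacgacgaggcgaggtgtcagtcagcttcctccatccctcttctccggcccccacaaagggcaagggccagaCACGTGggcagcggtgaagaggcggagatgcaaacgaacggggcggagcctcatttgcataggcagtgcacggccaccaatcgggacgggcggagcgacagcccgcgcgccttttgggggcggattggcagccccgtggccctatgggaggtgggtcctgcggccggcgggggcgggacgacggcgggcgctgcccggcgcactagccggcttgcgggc

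The letters CACGTG stood in 5 of the 13 member windows. These were the Per1 window shown (166 bases before the start), those of Cry1 (60 bases) and Fkbp5 (169 bases), and a pair of Tef windows (127 and 138 bases). The other Per1 window, chr11:69099902-69100201, did not hold them and is not shown. CACGTG stood in 7.15% of all 32851 windows of this length. The D-box letters TTANGTAA stood in the Per3 window 205 and 158 bases before the start and in 2.32% of all windows. Neither the RORE motif (0.219% of all windows), the glucocorticoid response element (0.475%) nor the cyclic AMP response element TGACGTCA (1.79%) stood in a member window. All 5 were searched on both strands, no motif contains another, and a match is a description of the letters, not of binding.

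Among the repressors of the negative limb, Per1 was the most abundant in every library. Per1 had 59.0, 87.1 and 120.2 TPM as the lowest, median and highest of the NO2-OA group, against 61.0, 123, 27.7, 207 and 66.1 TPM in HFD+L-NAME replicates 1 to 5 and 237, 83.5, 106, 105 and 69.8 TPM in chow replicates 1 to 5. The 3 groups overlapped, with HFD+L-NAME replicate 4 and chow replicate 1 highest and HFD+L-NAME replicate 3 lowest.

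Per2, its close relative, varied more. Per2 had 1.68, 2.61 and 9.08 TPM as the lowest, median and highest of the NO2-OA group, against 3.36, 2.95, 1.02, 13.4 and 9.51 TPM in HFD+L-NAME replicates 1 to 5 and 16.2, 5.00, 6.33, 3.34 and 1.88 TPM in chow replicates 1 to 5. The values overlapped between the groups, and each group held 1 or 2 libraries well above its others: NO2-OA replicate 2, HFD+L-NAME replicates 4 and 5, and chow replicate 1.

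Per3, the third period gene, was the lowest member and had the narrowest range, 4.28-fold between libraries in TPM and 1.94-fold after rescaling. It had 0.532, 0.975 and 1.15 TPM as the lowest, median and highest of the NO2-OA group, 0.531 to 1.18 TPM in HFD+L-NAME libraries and 0.485 to 2.07 TPM in chow libraries. Cry1, the cryptochrome partner of the period proteins, had 7.96 to 14.6 TPM in the NO2-OA group with a median of 11.3 TPM, against 4.98 to 25.3 TPM in HFD+L-NAME libraries and 8.42 to 26.9 TPM in chow libraries. For both genes chow replicate 1 was the highest of the 16, and all 3 groups overlapped.

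Nr1d1 had the widest range of the members, 52.6-fold between its lowest and highest library in TPM and 21.9-fold after rescaling. Nr1d1 had 1.05, 1.30 and 4.38 TPM as the lowest, median and highest of the NO2-OA group, against 0.806, 1.09, 0.273, 8.32 and 4.05 TPM in HFD+L-NAME replicates 1 to 5 and 14.4, 1.33, 4.25, 1.21 and 0.392 TPM in chow replicates 1 to 5. Each group again held its own high libraries, NO2-OA replicate 2, HFD+L-NAME replicates 4 and 5, and chow replicates 1 and 3, and the groups overlapped. Nr1d1 rested on 7 to 399 recovered reads per library with a median of 31, so its low values are imprecise.

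Nr1d2, which encodes REV-ERB beta, was higher in level. Nr1d2 had 9.31, 14.4 and 16.9 TPM as the lowest, median and highest of the NO2-OA group, against 8.91, 17.1, 5.43, 49.8 and 11.3 TPM in HFD+L-NAME replicates 1 to 5 and 52.3, 13.7, 21.98, 16.2 and 9.16 TPM in chow replicates 1 to 5. HFD+L-NAME replicate 4 and chow replicate 1 stood above all other libraries, and the groups overlapped.

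The output factors Dbp and Tef were highest in a different pair of libraries. Dbp had 0.842, 1.78 and 2.96 TPM as the lowest, median and highest of the NO2-OA group, against 2.15, 2.61, 1.37, 3.61 and 0.674 TPM in HFD+L-NAME replicates 1 to 5 and 7.53, 5.43, 1.61, 2.54 and 1.58 TPM in chow replicates 1 to 5. Chow replicates 1 and 2 lay above every other library, and the remaining chow values fell inside the range of the other groups. Tef had 3.85 to 7.02 TPM in the NO2-OA group with a median of 5.09 TPM, against 2.47 to 9.14 TPM in HFD+L-NAME libraries and 3.56 to 13.8 TPM in chow libraries, and chow replicates 1 and 2 were again its highest.

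Of the glucocorticoid targets, Fkbp5 encodes a co-chaperone that dampens the glucocorticoid receptor, and Tsc22d3 encodes GILZ, an anti-inflammatory leucine zipper protein. Fkbp5 had 1.87, 5.06 and 8.52 TPM as the lowest, median and highest of the NO2-OA group, against 6.17, 9.92, 2.09, 5.07 and 1.12 TPM in HFD+L-NAME replicates 1 to 5 and 5.38, 6.91, 2.06, 8.82 and 3.26 TPM in chow replicates 1 to 5. NO2-OA replicate 2, HFD+L-NAME replicates 3 and 5 and chow replicate 3 had the lowest values, so the groups overlapped over nearly their whole range.

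Tsc22d3 was the most abundant member, above Per1 in 15 of 16 libraries. Tsc22d3 had 59.1, 170.0 and 228 TPM as the lowest, median and highest of the NO2-OA group, against 135, 279, 81.3, 282 and 79.8 TPM in HFD+L-NAME replicates 1 to 5 and 279, 249, 106, 233 and 173 TPM in chow replicates 1 to 5. After rescaling its range narrowed to between 97.3 and 202, with NO2-OA replicate 2 the lowest and the other 15 libraries at 138 or more.

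**Figure D1:**
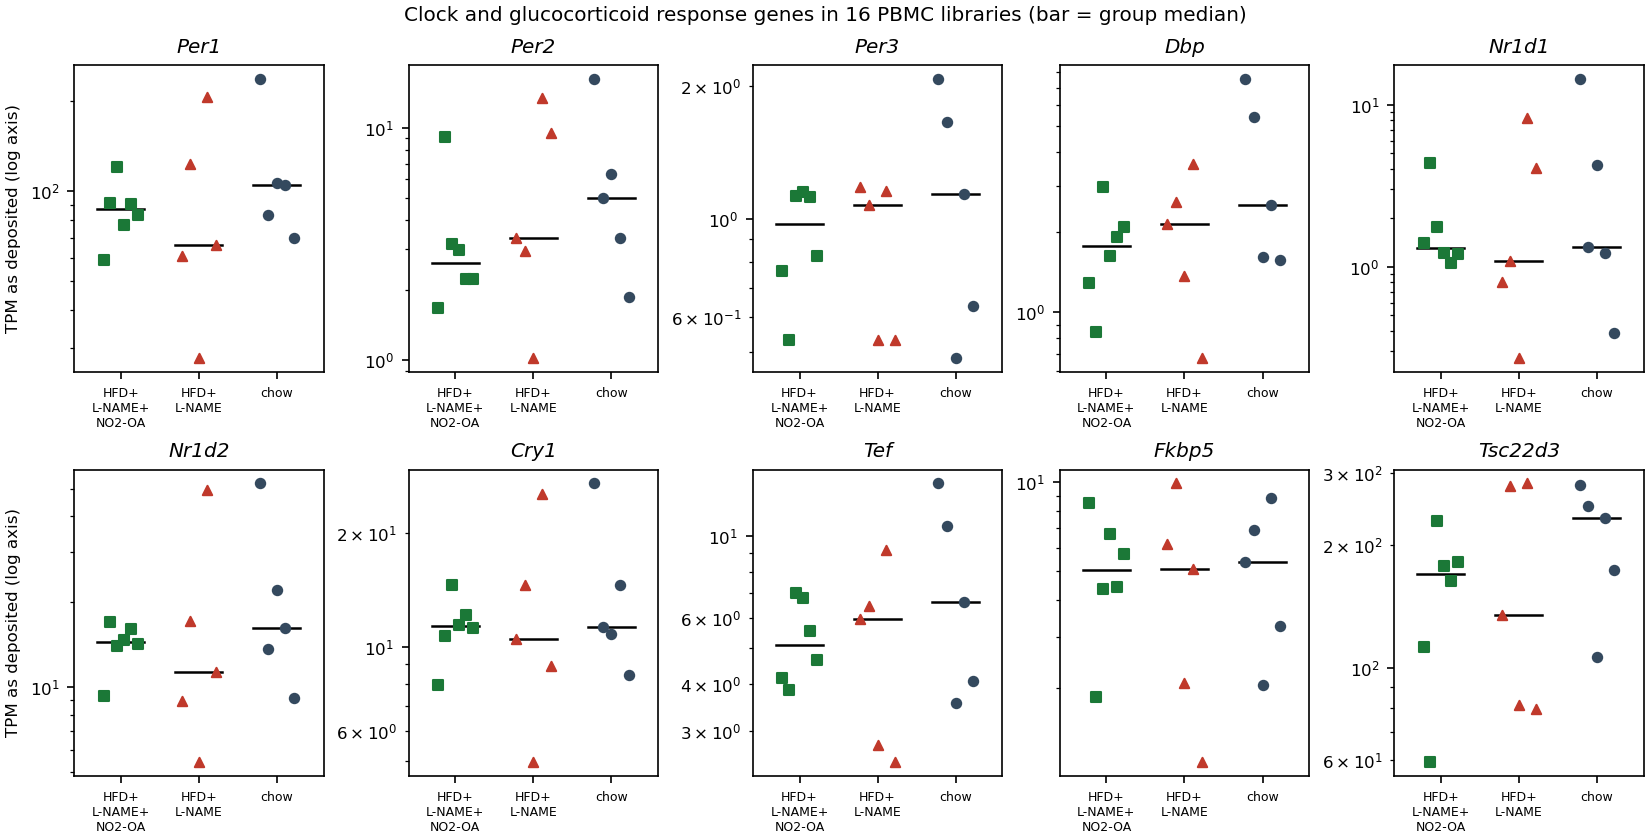
TPM on a log axis for each member in the 3 groups, with 1 point per library. Points of the groups overlap for every member, and Nr1d1 and Per2 show 1 or 2 libraries per group above the rest.

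Ordered by mean TPM over the 16 libraries (± SD, n = 16), the members ran from Tsc22d3 (176 ± 75.9) through Per1 (101 ± 53.5), Nr1d2 (18.2 ± 13.4), Cry1 (12.8 ± 5.81), Tef (6.10 ± 3.03), Per2 (5.27 ± 4.48), Fkbp5 (5.15 ± 2.65), Nr1d1 (2.94 ± 3.70) and Dbp (2.49 ± 1.77) to Per3 (1.00 ± 0.437). Neighbours in this order exceeded each other in 14 or more of 16 libraries except in 4 places. Tef exceeded Per2 in 11 libraries, Per2 exceeded Fkbp5 in 5, Fkbp5 exceeded Nr1d1 in 11 and Nr1d1 exceeded Dbp in 6, so the order of these 5 genes was not fixed across libraries.

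After rescaling, Per1, Per2, Nr1d2 and Cry1 stood apart in the 5 libraries where Nr1d1 was high, which came from all 3 groups. The largest gap in rescaled Nr1d1, 1.28 on the log2 scale against 0.32 for the next largest, set NO2-OA replicate 2, HFD+L-NAME replicates 4 and 5 and chow replicates 1 and 3 (5.94 to 9.25 rescaled TPM) above the other 11 libraries (0.423 to 1.86). Because these libraries were picked by the values of Nr1d1, what follows is a description with no test.

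After rescaling, Per1, Per2, Nr1d2 and Cry1 were higher in all 5 of these libraries than in any of the other 11. Per1 had 143 to 155 rescaled TPM in the 5 libraries, against 50.5 to 88.0 in the other 11. Per2 had 9.21 to 20.6 against 1.86 to 3.43, Nr1d2 24.4 to 35.5 against 9.04 to 13.9, and Cry1 15.7 to 19.3 against 7.46 to 10.8 rescaled TPM. Nr1d1 is not counted here, because its own values picked the libraries. Beside these 4 genes, 5 members overlapped. Of all tested genes, 8.13% (1330 of 16365) were likewise above in all 5 libraries.

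The other members, Per3, Dbp, Tef, Fkbp5 and Tsc22d3, did not separate. Per3 had 0.705 to 1.33 rescaled TPM in the 5 libraries, against 0.687 to 1.203 in the other 11. Dbp had 1.39 to 4.85 against 1.36 to 3.60, and Tef 5.19 to 8.88 against 4.41 to 7.05 rescaled TPM. Fkbp5 had 2.43 to 3.62 against 3.18 to 11.4, and Tsc22d3 had 97.3 to 202 against 138 to 193 rescaled TPM.

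**Figure D2:**
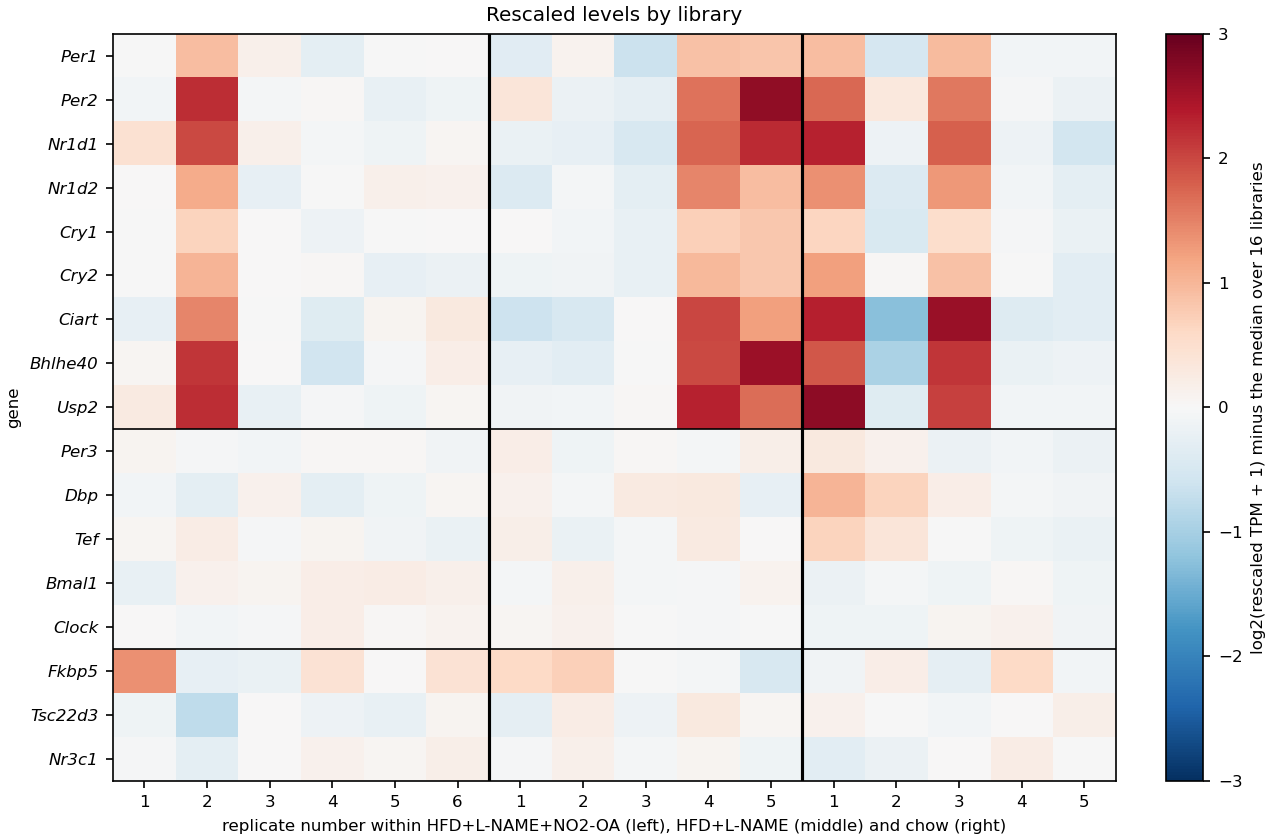
Log2 of rescaled TPM plus 1 by library for each member, minus the gene's median over the 16 libraries. The non-members Cry2, Ciart, Bhlhe40, Usp2, Bmal1, Clock and Nr3c1 are also drawn. NO2-OA replicate 2, HFD+L-NAME replicates 4 and 5 and chow replicates 1 and 3 are high for Nr1d1, Per2, Nr1d2, Per1 and Cry1, and not for Per3, Dbp, Tef, Fkbp5 or Tsc22d3 as a set.

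The separation depended on the scale. Per1, Per2, Nr1d2 and Cry1, beside Nr1d1, also separated when values were given per protein-coding TPM and as ratios to Clock within each library. Of tested genes, 11.4% were above and 0.177% below per protein-coding TPM, and 8.8% above and 2.29% below as ratios to Clock. These scales are not independent checks. Rescaled Clock varied little (SD above that of 0.4% of tested genes), and all 3 libraries with a low protein-coding share were among the 5. These 3 had library factors of 0.462 (HFD+L-NAME replicate 5), 0.607 (NO2-OA replicate 2) and 0.687 (chow replicate 3). HFD+L-NAME replicate 4 and chow replicate 1 had 1.40 and 1.55, and the other 11 libraries 0.549 to 1.51. The ratio to Clock was 1.05 to 1.86 in the 5 libraries against 0.0837 to 0.336 in the other 11 for Nr1d1, and 26.02 to 30.7 against 9.21 to 16.3 for Per1. On TPM as deposited Per2 separated, at 6.33 to 16.2 against 1.02 to 5.00 TPM, and 0.605% of tested genes did so. Per1, Nr1d2 and Cry1 overlapped on that scale. Per1, for example, had 66.1 TPM in HFD+L-NAME replicate 5, among the 5, and 123 TPM in HFD+L-NAME replicate 2, among the 11. Nr1d1 itself was at 4.05 to 14.4 against 0.273 to 1.77 TPM.

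Of the other 21 clock genes listed, 16 were tested, and 4 of these were above in all 5 libraries after rescaling, beside 8.13% of all tested genes. In TPM as deposited 2 of the 16 were above, Bhlhe40 and Usp2, beside 0.605% of all tested genes. Cry2, the other cryptochrome, had 7.19 to 10.1 rescaled TPM in the 5 libraries against 2.76 to 3.81 in the other 11. Bhlhe40, which encodes the repressor DEC1, had 73.0 to 119.7 against 9.51 to 22.5, Ciart, a repressor of CLOCK and BMAL1, 19.8 to 51.6 against 2.66 to 9.76, and the deubiquitinase gene Usp2 4.50 to 10.1 against 0.334 to 1.08 rescaled TPM.

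The activators showed no separation. Bmal1 had 6.20 to 7.97 rescaled TPM in the 5 libraries against 5.96 to 8.46 in the other 11, and Clock had 4.96 to 5.87 against 5.01 to 6.47. Their rescaled spread was low, with an SD above that of 4.4% of tested genes for Bmal1 and 0.4% for Clock, while that of Nr1d1 was above 94.95% and that of Per2 above 94.2%.

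Of the other 22 glucocorticoid genes listed, 21 were tested. After rescaling 6 were above in all 5 libraries, beside 8.13% of all tested genes: Sgk1, Klf9, Dusp1, Zfp36, Nfkbia and Errfi1. In TPM as deposited 2 were above, Zfp36 and Nfkbia, and 1 was below, Cebpd. Of all tested genes, 0.605% were above and 0.66% below on that scale. Dusp1, a phosphatase of MAP kinases, had 297 to 488 rescaled TPM against 96.1 to 173, and Nfkbia, the inhibitor of NF-kappa-B, 559 to 680.3 against 100.3 to 171. The kinase gene Sgk1 had 32.1 to 65.3 against 15.2 to 28.2, and the transcription factor gene Klf9 13.3 to 23.3 against 4.55 to 11.3 rescaled TPM. The receptor Nr3c1 overlapped, at 25.5 to 33.7 in the 5 libraries against 27.9 to 37.5 in the other 11, as did Zbtb16 (3.95 to 6.11 against 2.47 to 7.75).

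Several measures moved with these 5 libraries, and their part in the result was not tested. The widest gaps among 7261 named genes with a mean of at least 5 TPM, 870 of which were above in all 5, belonged to Fosb, Klf4 and Rgcc, picked after their values were seen. Fosb, an immediate early gene, had 591 to 774 rescaled TPM in the 5 libraries against 2.76 to 15.5 in the other 11. Fos had 593 to 912 against 46.3 to 165, and the cytokine gene Tnf 39.0 to 68.1 against 3.04 to 11.1 rescaled TPM. All 3 libraries with a low protein-coding share were among the 5, as were 2 of the 4 with peritoneal macrophage genes, and 3 of the 5 libraries with higher library numbers. HFD+L-NAME replicate 4 had neither a low protein-coding share (43.1% of TPM), peritoneal macrophage genes (0.785 TPM of the markers) nor a higher library number. In rescaled TPM none of the T cell, B cell, NK cell, monocyte, neutrophil, platelet or red cell markers was above or below in all 5 libraries. In TPM as deposited, 2 of the 5 red cell markers, the haemoglobin genes Hba-a1 and Hba-a2, were below in all 5, and none of the other markers of these types was above or below.

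The summed B cell markers, for example, were 482 to 1013 rescaled TPM in the 5 libraries against 687 to 1341 in the other 11, and the summed monocyte markers 727 to 4154 against 938 to 3889. The red cell markers were 501 to 12204 against 6686 to 215027, and the platelet markers 515 to 7187 against 2779 to 56902 rescaled TPM. In bulk samples fewer cells of a type and less RNA per cell cannot be told apart.

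**Figure D3:**
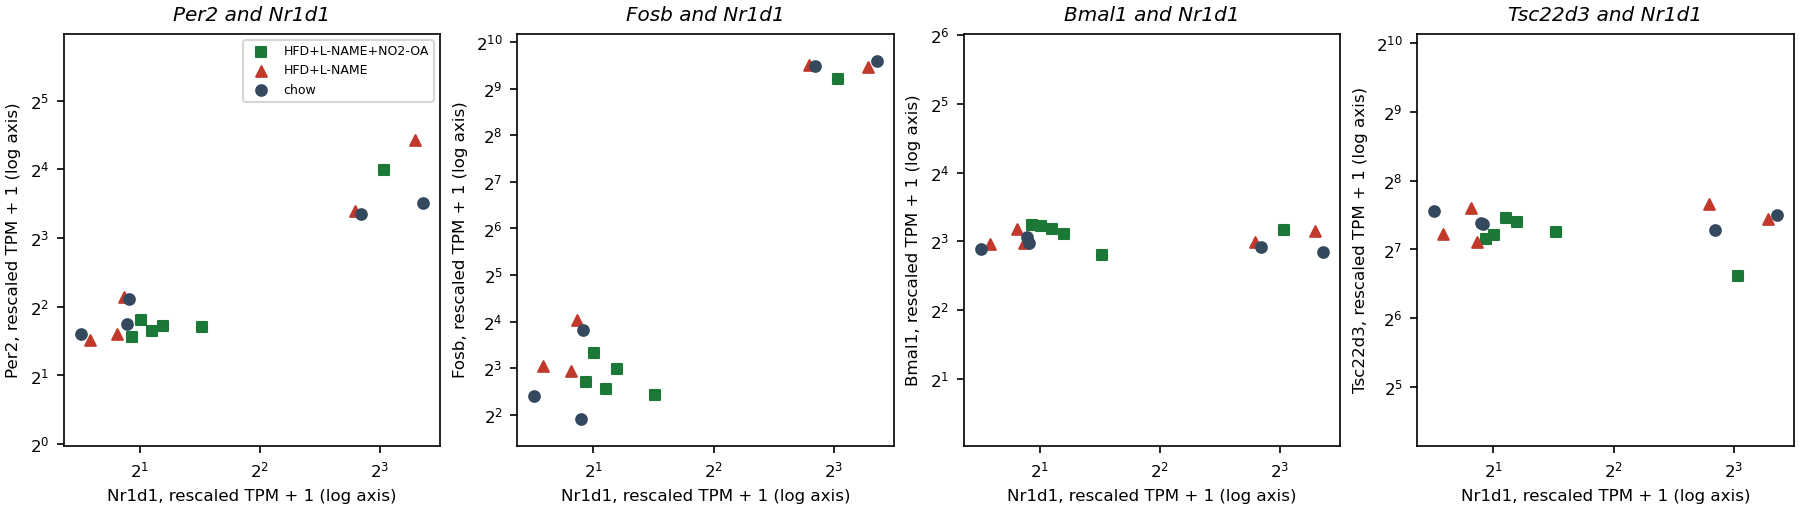
Rescaled TPM plus 1 of Per2, Fosb, Bmal1 and Tsc22d3 against that of Nr1d1, on log axes, with 1 point per library coloured by group. The 5 libraries on the right, from all 3 groups, are also higher for Per2 (9.21 to 20.6 against 1.86 to 3.43) and Fosb (591 to 774 against 2.76 to 15.5), and not for Bmal1 or Tsc22d3.

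Whether the members moved together was asked over 55 pairs, the 45 pairs of members and the 10 with Bmal1, by permutation of Pearson's r of log2(value + 1) with Benjamini-Hochberg adjustment over the 55. In TPM 36 of 55 pairs were called, all positive, with the lowest called r at 0.58. An r at least that high is common in TPM: over all tested genes 9.31% reached it with Nr1d1, 40.2% with Per1, 67.0% with Tef and 69.99% with Tsc22d3, the lowest and highest shares of the 10 members being those of Nr1d1 and Tsc22d3. After rescaling 12 of 55 pairs were called, and 10 of these are the pairs among Per1, Per2, Nr1d1, Nr1d2 and Cry1, the genes on which the 5 libraries form a separate cluster. For those pairs no r over all 16 libraries is given. No share over all tested genes is given for the 12 calls.

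Within the 11 libraries below the gap, 41 of 55 pairs were called in TPM and 3 after rescaling. No share over all tested genes is given for these counts. Since a high r was common in TPM over the 16 libraries, the 41 calls are not read as particular to the members. Of the 10 pairs among Per1, Per2, Nr1d1, Nr1d2 and Cry1, 9 were called there in TPM, with r between 0.61 and 0.96, and 0 after rescaling, with r between -0.56 and 0.66 and 1 at an unadjusted p under 0.05. The 11 libraries were chosen, after the data were seen, for low rescaled Nr1d1, which narrows the range of these genes. The rescaled count therefore says nothing on whether these genes are related. For the same reason the calls and p-values within the 11 libraries, including those below, describe these libraries and test no relation. The 3 called pairs each had an adjusted permutation p of 0.0361. Per2 with Tef had r = 0.84 (permutation p = 0.00197) and rho = 0.68, and r fell to 0.51 without chow replicate 2 and HFD+L-NAME replicate 1. Per3 with Tef had r = 0.84 (permutation p = 0.00107) and rho = 0.87, with 0.79 both without 2 libraries and within the 9 of these libraries of lower number. Per3 with Tsc22d3 had r = -0.83 (permutation p = 0.00174) and rho = -0.83, with -0.71 without 2 libraries and -0.94 within those 9. Its sign depended on the scale: in TPM the same pair in the same 11 libraries had r = 0.67 (adjusted permutation p = 0.0400), and over all 16 libraries the rescaled r was -0.16 (adjusted permutation p = 0.841).

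**Figure D4:**
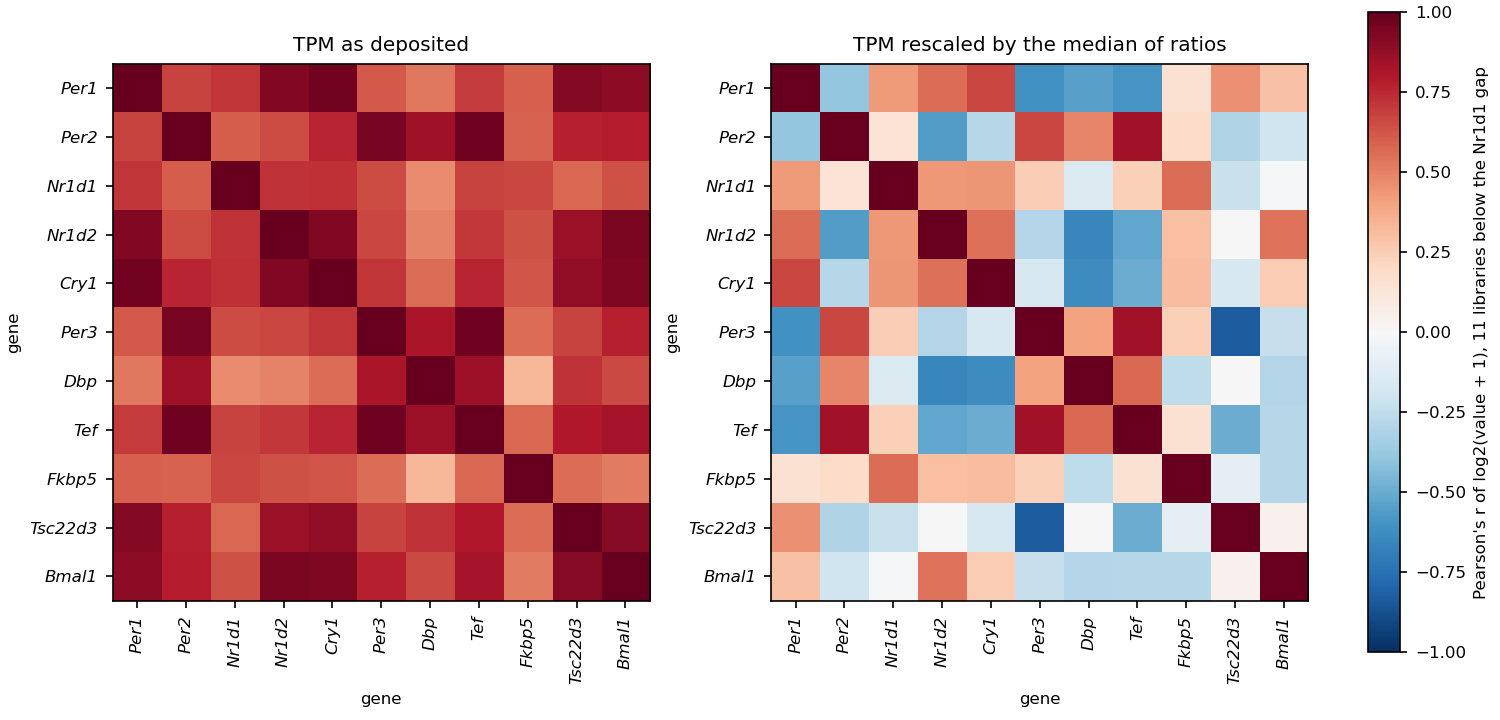
Pearson's r of log2(value + 1) between the 10 members and Bmal1 over the 11 libraries below the gap in Nr1d1, for TPM as deposited and for rescaled TPM, from -1 to 1. In TPM 41 of 55 pairs were called and all 41 were positive, and after rescaling 3 were called. No share over all tested genes is given for these counts, and the 11 libraries were picked by the values of Nr1d1.

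Tef and Per3 gave the closest pair outside the cluster. In TPM r was 0.96 (permutation p = 1e-05, the smallest that 100000 resamples can give; adjusted p = 9.17e-05) and rho 0.92 (adjusted p = 0.000137). It was 0.94 without chow replicates 1 and 3 and 0.92 within the 11 libraries of lower number. Only 0.0122% of tested genes had a higher r with Per3 than Tef did. After rescaling r was 0.70 (permutation p = 0.00191, adjusted p = 0.00955) and rho 0.69 (adjusted p = 0.0244), falling to 0.50 without HFD+L-NAME replicate 1 and chow replicate 1 and to 0.40 within the libraries of lower number.

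Dbp and Tef, both PAR bZIP factors, had r = 0.93 in TPM (permutation p = 1e-05, adjusted p = 9.17e-05; rho = 0.91, adjusted p = 0.000137). After rescaling r was 0.68 (permutation p = 0.00613, adjusted p = 0.0281) with rho = 0.34 (permutation p = 0.192). The rescaled relation rests on chow replicates 1 and 2, since r was 0.05 without them, and it was 0.28 within the libraries of lower number. Per3 and Dbp had r = 0.90 in TPM and 0.43 after rescaling (permutation p = 0.0982, adjusted p = 0.246), with -0.22 within the libraries of lower number.

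The glucocorticoid pair passed the test in TPM and not after rescaling. Fkbp5 and Tsc22d3 had r = 0.73 in TPM (permutation p = 0.00158, adjusted p = 0.00395; rho = 0.61, adjusted p = 0.0325). It was 0.55 without NO2-OA replicate 2 and HFD+L-NAME replicate 5 and 0.60 within the libraries of lower number. In TPM 27.2% of all tested genes had a higher r with Fkbp5 than Tsc22d3 did, and the median over tested genes was 0.60. After rescaling r was 0.03 (permutation p = 0.900; rho = -0.10, permutation p = 0.712). Against the 37 other clock and glucocorticoid genes, 74 relations in all, Fkbp5 was related to 7 of 16 and 11 of 21 in TPM and Tsc22d3 to 11 of 16 and 13 of 21, and after rescaling 0 of the 74 relations were called, with 9 at an unadjusted p under 0.05. Of all tested genes, 55.9% had a TPM r with Fkbp5 at least as high as its lowest called one (0.56), and 71.4% with Tsc22d3 (0.56), so these TPM counts show nothing particular to the listed genes.

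Tsc22d3 and Bmal1 had r = 0.90 in TPM (permutation p = 2e-05, adjusted p = 0.000137; rho = 0.81, adjusted p = 0.00126) and -0.21 after rescaling (permutation p = 0.465; rho = -0.14, permutation p = 0.601). Without NO2-OA replicate 2 and HFD+L-NAME replicate 5 the TPM value was 0.90, and within the libraries of lower number it was 0.91. In TPM 16.2% of all tested genes had a higher r with Tsc22d3 than Bmal1 did, and the median over tested genes was 0.76.

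Tsc22d3 also had a high r with the B cell markers in TPM, a scale on which a high r is common. Over 90 relations between a member and a library measure, 22 were called in TPM, among them Tsc22d3 with the summed B cell markers at r = 0.91 (permutation p = 2e-05, adjusted p = 0.000900; rho = 0.86; 0.89 without 2 libraries; 0.90 within the libraries of lower number). Per3 with the B cell markers gave r = 0.87 and Tef 0.83. Over all tested genes the median TPM r was 0.76 with Tsc22d3, 0.69 with Per3 and 0.72 with Tef. No share over all tested genes is given for the 22 calls. After rescaling none of the 3 B cell relations was called, and the part of cell makeup in the members' TPM was not tested beyond these values.

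By diet and inhibitor, no member passed the test. In the HFD+L-NAME group against chow, limma called 0 of 10 members at an adjusted p under 0.05, where 0.00611% of all tested genes (1 of 16365) were called. None of the 10 had an unadjusted p under 0.05, against 2.93% of tested genes. The log2 differences lay between -0.53 and -0.17, all 10 below 0, with a median of -0.34 beside -0.29 for all tested genes. After rescaling their median was -0.02 beside 0.03 for all genes, with 4 above and 6 below 0.

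Dbp had the lowest of these differences, with 2.08 ± 1.13 TPM in the HFD+L-NAME group and 3.74 ± 2.64 TPM in the chow group (SD, n = 5 each), a log2 difference of -0.53 ± 0.36 (SE). Its 95% interval ran from -1.27 to 0.20 (limma, adjusted p = 0.816). Per1 averaged 97.0 ± 70.4 TPM in the HFD+L-NAME group and 120.3 ± 66.9 TPM in the chow group, a log2 difference of -0.48 ± 0.47. Nr1d1 averaged 2.91 ± 3.37 TPM in the HFD+L-NAME group and 4.31 ± 5.81 TPM in the chow group, a log2 difference of -0.27 ± 0.53. The direction was not stable: without the 4 libraries with peritoneal macrophage genes, 2 from each of these groups, 9 of the 10 differences were above 0 with a median of 0.19, beside 0.13 for all genes.

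By NO2-OA, no member passed the test either. In the NO2-OA group against HFD+L-NAME, limma called 0 of 10 members, where 0.00611% of tested genes (1 of 16365) were called, and 0 of 10 had an unadjusted p under 0.05 beside 0.947% of tested genes. The log2 differences of 5 members were above 0 and those of 5 below. Per2 had the lowest difference, with 3.56 ± 2.76 TPM in the NO2-OA group (SD, n = 6) and 6.05 ± 5.20 TPM in the HFD+L-NAME group (SD, n = 5), a log2 difference of -0.44 ± 0.47 with a 95% interval from -1.42 to 0.53. Fkbp5 had the highest, with 5.25 ± 2.27 TPM in the NO2-OA group and 4.87 ± 3.50 TPM in the HFD+L-NAME group, a log2 difference of 0.23 ± 0.41. The median over the members was 0.00 beside 0.08 for all tested genes, and after rescaling -0.15 beside -0.04.

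In the NO2-OA group against chow, limma called 0 of 10 members and 0 of all tested genes (0.0%), and 0 of 10 had an unadjusted p under 0.05 beside 2.8% of tested genes (458 of 16365). Dbp averaged 1.79 ± 0.727 TPM in the NO2-OA group (SD, n = 6) and 3.74 ± 2.64 TPM in the chow group (SD, n = 5), a log2 difference of -0.63 ± 0.34. Its 95% interval ran from -1.33 to 0.07 (limma, unadjusted p = 0.0760, adjusted p = 0.977). After rescaling the Dbp difference was -0.45 ± 0.19 with an unadjusted limma p of 0.0304 and an adjusted p of 0.9998. On that scale 603 of 16365 tested genes had an unadjusted p under 0.05. Per2 followed at -0.61 ± 0.47 and Tsc22d3 at -0.48 ± 0.45, while Fkbp5 stood at 0.02 ± 0.41. The median was -0.38 beside -0.20 for all tested genes, and after rescaling -0.16 beside -0.01. The 3 comparisons share their libraries, so their members' values are not independent of each other.

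**Figure D5:**
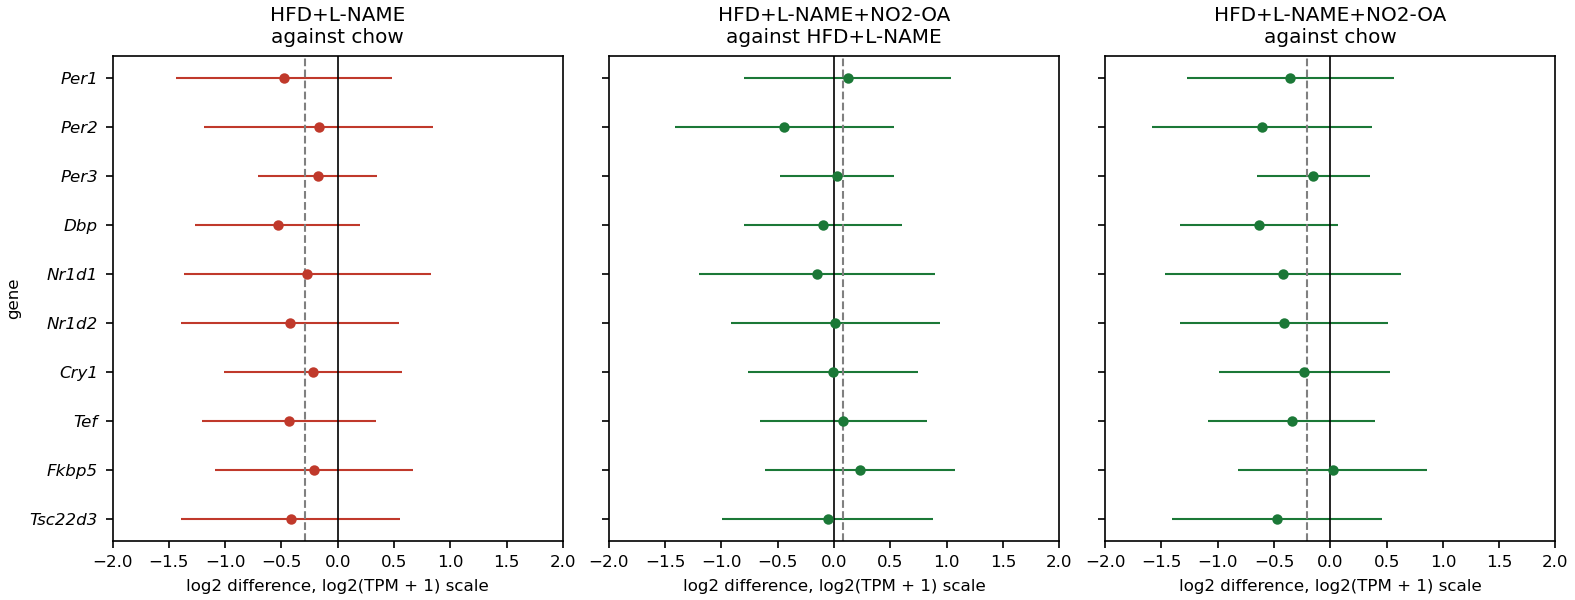
Log2 difference of each member in the 3 comparisons with its 95% interval from limma on log2(TPM + 1), with a dashed line at the median of all tested genes. All 30 intervals include 0.

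Fitted by limma-voom on the recovered reads, 0 of these 30 member differences were called and 1 had an unadjusted p under 0.05. Of all 16354 genes so fitted, 660 had such a p in HFD+L-NAME against chow. In NO2-OA against HFD+L-NAME and against chow 414 and 834 had one, and 0 genes were called in each comparison.

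The other listed genes gave no call in any comparison. Of the 16 other clock genes tested, 3 were above and 13 below 0 in HFD+L-NAME against chow (median log2 difference -0.27), 8 and 8 in NO2-OA against HFD+L-NAME (0.00) and 1 and 15 in NO2-OA against chow (-0.23). Of the 21 other glucocorticoid genes tested, 3 were above and 18 below 0 in HFD+L-NAME against chow (-0.27), 10 and 11 in NO2-OA against HFD+L-NAME (-0.02) and 3 and 18 in NO2-OA against chow (-0.22). Il7r, the interleukin-7 receptor gene, was the only one of these 37 genes with an unadjusted p under 0.05, at a log2 difference of -1.05 ± 0.47 in HFD+L-NAME against chow (limma, unadjusted p = 0.0336, adjusted p = 0.816).

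The smallest unadjusted p-values among the other clock genes belonged in HFD+L-NAME against chow to Timeless (log2 difference -0.47 ± 0.30), Rora and Cry2. In NO2-OA against HFD+L-NAME they belonged to Bhlhe41 (-0.40 ± 0.33), Rora, Nfil3 and Usp2, and in NO2-OA against chow to Nfil3, a repressor at D-boxes (0.60 ± 0.40), Cry2, Usp2 and Timeless. Bmal1 stood at -0.24 ± 0.37, 0.21 ± 0.35 and -0.03 ± 0.35 in these 3 comparisons, and Clock at -0.27 ± 0.35, 0.14 ± 0.34 and -0.13 ± 0.34.

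Among the other glucocorticoid genes they belonged in HFD+L-NAME against chow to Il7r, Hsd11b1 (-0.61 ± 0.34), which regenerates active glucocorticoid, Txnip and Ddit4. In NO2-OA against HFD+L-NAME they belonged to Il7r (0.76 ± 0.45), Rgs2, Dusp1 and Pik3ip1, and in NO2-OA against chow to Dusp1 (-0.75 ± 0.47), Nr3c2, Hsd11b1 and Txnip. The receptor gene Nr3c1 stood at -0.34 ± 0.42, 0.17 ± 0.40 and -0.17 ± 0.40 in the 3 comparisons.

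Genes whose TPM pattern over the 16 libraries was most like a member's were taken by Pearson's r of log2(TPM + 1) among 7261 named genes with a mean of at least 5 TPM. For Per1 these were Cdt1, Tgif1, Mef2d, Nbn and Ptpn23, all at r = 0.98, and Tgif1, Nbn and Ptpn23 were also among its 5 most alike after rescaling. For Dbp they were Eef1a1 (0.96), Arl5c, Stoml1, Tubb5 and Cirbp (0.95 each), of which Stoml1 stayed after rescaling. For Fkbp5 they were Ppp1r21 (0.91), Trim59, Plekha1, Dcaf6 and Zbtb44 (0.90 each). For Tsc22d3 they were Hmgn1 and Rpl34 (0.98), Cetn3 (0.98), Serp1 and Llph (0.97). These coefficients describe libraries that share their scale, and they carry no test.

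Some reads cannot be assigned to these genes alone. On opposite strands, exons of Nr1d1 share 263 bases with Thra (8.55% of its exon bases), Dbp 539 bases with Sphk2 (18.01%) and Tef 193 bases with Gm17597 (2.45%). The strand setting of the counting is not given in the sources used here, so reads from these stretches cannot be told apart.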

How the data were processed

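RNA of frozen and thawed blood mononuclear cells (EDTA blood, Ficoll gradient, red cell lysis) was sequenced from random-primed, depleted total RNA, per the labels' protocols. The submitters' processing notes name bcl2fastq, Trim Galore, HISAT2 and featureCounts and the builds mm39 and hg38, with no versions; the annotation and strand setting are not given in the sources used here. The deposited values are TPM, which the authors computed per gene and library; each library sums to 1000000. Reads were recovered from the TPM steps for 99.9% of tested genes (16354 of 16365, tolerance 0.001), 4293056 to 23287362 per library, and used only for precision and in an alternative. All genes with recovered reads held 58.9% to 88.4% of TPM per library, so these totals are not the full depth.

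Genes with at least 1 TPM in at least 5 of 16 libraries were fitted with limma 3.58.1 in R 4.3.3 on log2(TPM + 1), 1 mean per group over all 16 libraries, moderated variance with trend, two-sided, Benjamini-Hochberg over 16365 genes; adjusted p under 0.05 was called. The pseudocount of 1 understates fold changes of low genes. Correlations used 100000 permutations (Python 3.11.15, numpy 2.4.6), two-sided. Protein-coding status came from GENCODE M21 and promoter windows from RefSeq. The limma fit was tested on simulated data. Alternatives were the pseudocount, filter, scaling, libraries left out and a replicate block. The members are named in every comparison; other genes are the 4 of smallest p per list (1 is not reported here), the activators and receptors, or those said to be picked by their values. The members, lists and tests were chosen with earlier results of these data known. The rescaled description of 5 and 11 libraries was added after seeing the data.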

Additional observations from a re-analysis of the deposited data

Results flagged for a closer look

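Each member was checked in each group for 1 library far from the others (Dixon's criterion at 95%), 30 groups in all. Chance flags about 1 in 20 groups, which is 1.5 of 30, and 3 were flagged, all in the NO2-OA group. Nr1d1 in NO2-OA replicate 2 was the highest of its group at 4.38 TPM, with the next at 1.77 TPM. Per2 in the same library was the highest at 9.08 TPM, with the next at 3.15 TPM. After rescaling both stayed the highest of their group, Nr1d1 at 7.20 and Per2 at 15.0. This library had 15.9% protein-coding TPM, the lowest of its group. Nr1d2 in NO2-OA replicate 1 was the lowest of its group at 9.31 TPM, with the next at 14.0 TPM. After rescaling it was at 12.4 and not the lowest, with NO2-OA replicates 3 and 4 at 10.2 and 12.2. NO2-OA replicate 1 had 30.7% of its TPM in haemoglobin genes, the highest of the 16. The part of these library measures in the values was not tested.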

How the results depend on the processing

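No member was called in any of the 921 alternative values of the 30 member differences, whose smallest adjusted limma p was 0.478, so the absence of calls held in every alternative run. The signs did not hold: 41 of 480 values on leaving out 1 library and 66 of 441 other alternatives had the opposite sign, and the cause was not tested. The depth limits Nr1d1, Dbp and Per3, which had as few as 7, 16 and 42 recovered reads in a library.

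Genes called in HFD+L-NAME against chow numbered 1 as reported. They numbered 0 without the filter, rescaled by the median of ratios, scaled by the protein-coding sum, with voom and without the 3 libraries of low protein-coding share, 2 in the libraries of lower number and without the 4 peritoneal libraries, 4 with the 2 groups fitted alone, and 0 to 2 on leaving out 1 library. In NO2-OA against HFD+L-NAME 1 was called as reported. There were 0 by median of ratios, protein-coding sum, voom and without the 3 libraries, 2 with pseudocount 0.1, a filter at 5 TPM, a library-number term and without the 4 libraries, 3 in the libraries of lower number, and 0 to 4 on leaving out 1 library. In NO2-OA against chow 0 were called as reported (458 at an unadjusted p under 0.05), 1 in the libraries of lower number, and 0 to 1 on leaving out 1 library. Called pairs numbered 36 as reported and 32 to 39 on leaving out 1 library, but 12 after rescaling, 10 with Spearman's rho or in the libraries of lower number as well, 14 without the 3 libraries as well, and 3 within the 11 libraries.

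Rescaling by the median of ratios turned HFD+L-NAME against chow to 0.15 for Cry1, 0.085 for Fkbp5, 0.16 for Per2 and 0.044 for Per3, and NO2-OA against HFD+L-NAME to -0.13 for Nr1d2, -0.045 for Per1, -0.048 for Per3 and -0.037 for Tef. With voom they were 0.16 for Cry1, 0.14 for Fkbp5, 0.070 for Per2 and 0.028 for Per3, and -0.14 for Nr1d2, -0.036 for Per1, -0.051 for Per3 and -0.053 for Tef. Scaling by the protein-coding sum gave -0.11 for Nr1d2, -0.012 for Per1, -0.051 for Per3 and -0.013 for Tef in NO2-OA against HFD+L-NAME and -0.082 for Fkbp5 in NO2-OA against chow.

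In the 11 libraries of lower number, and with the same values without the 4 peritoneal libraries, HFD+L-NAME against chow was 0.17 for Cry1, 0.24 for Dbp, 0.23 for Fkbp5, 0.21 for Nr1d1, 0.19 for Nr1d2, 0.11 for Per2, 0.13 for Per3, 0.23 for Tef and 0.19 for Tsc22d3. In the libraries of lower number NO2-OA against HFD+L-NAME was -0.33 for Nr1d2, -0.095 for Per1 and -0.012 for Tef, and NO2-OA against chow 0.032 for Cry1, 0.025 for Dbp, 0.20 for Per3, 0.22 for Tef and 0.050 for Tsc22d3. Without the 4 libraries these were -0.0084 for Fkbp5, -0.27 for Nr1d2, -0.074 for Per1 and -0.083 for Tef, and 0.020 for Cry1, 0.074 for Nr1d1, 0.14 for Per3 and 0.15 for Tef. Without the 3 libraries of low protein-coding share they were -0.11 for Nr1d2 and -0.033 for Tef, and -0.0032 for Fkbp5. In NO2-OA against HFD+L-NAME, pseudocount 0.1 gave 0.0013 for Cry1 and 0.0053 for Nr1d1, leaving out haemoglobin 0.085 for Cry1 and 0.046 for Tsc22d3, and a library-number term 0.0092 for Cry1 and 0.032 for Nr1d1, with -0.063 for Fkbp5 in NO2-OA against chow.

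The groups share replicate numbers, and 3 of 15 same-numbered pairs had deviations correlated over 0.1 (-0.51 to 0.51). No values of pairs with unlike numbers are given, so these cannot decide whether same-numbered libraries are related. The replicate block gave 1, 1 and 0 called genes in the 3 comparisons and -0.019 for Fkbp5 in NO2-OA against chow, the only sign it turned. After rescaling r of Tsc22d3 with Bmal1 was -0.21, and -0.14 with rho, -0.063 in the libraries of lower number and -0.11 without the 3 libraries. For Fkbp5 with Tsc22d3 it was -0.10 with rho, -0.086 in the libraries of lower number, -0.27 without the 3 libraries and -0.098 within the 11, and for Per3 with Dbp -0.22 in the libraries of lower number.

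On leaving out 1 library, HFD+L-NAME against chow ranged from -0.49 to 0.042 for Cry1, -0.49 to 0.099 for Fkbp5, -0.68 to 0.26 for Nr1d1 and -0.51 to 0.20 for Per2. In NO2-OA against HFD+L-NAME the ranges were -0.27 to 0.26 for Cry1, -0.30 to 0.067 for Dbp, -0.079 to 0.51 for Fkbp5, -0.46 to 0.26 for Nr1d1, -0.29 to 0.46 for Nr1d2, -0.24 to 0.47 for Per1, -0.045 to 0.090 for Per3, -0.11 to 0.28 for Tef and -0.28 to 0.19 for Tsc22d3. In NO2-OA against chow they were -0.38 to 0.012 for Cry1, -0.21 to 0.23 for Fkbp5 and -0.76 to 0.10 for Nr1d1. Differences named in the report that kept their sign also moved: -0.71 to -0.28 for Dbp and -0.83 to -0.11 for Per1 in HFD+L-NAME against chow, -0.81 to -0.098 for Per2 in NO2-OA against HFD+L-NAME, and -0.81 to -0.38 for Dbp, -0.89 to -0.24 for Per2 and -0.70 to -0.23 for Tsc22d3 in NO2-OA against chow.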
